A study of Homo sapiens with 4 samples.

Results

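EZH2 peaks around 8 genes of the PAX family were examined in HEK293 cells, an established human embryonic kidney line. The genes were PAX1, PAX2, PAX3, PAX5, PAX6, PAX7, PAX8 and PAX9. The rule lists them by name and uses no measured value, but it was set with earlier results of these data known. A peak was assigned to a gene when at least 1 of its bases lay within 20 kb of the gene start. The starts were given in hg19 to the nearest 1000 bases, so distances below carry that uncertainty. This rule took 29 of the 66093 deposited peaks, 11 of 35016 in H3.1-K27M cells and 18 of 31077 in H3.1-WT cells. PAX4 was not analysed here.

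The cells carried H3.1-K27M or H3.1-WT histone, delivered by lentivirus, selected with G418 and induced with doxycycline at 1 µg/ml. Both groups therefore share the transduction, the selection and the inducer, and the endogenous histone genes of HEK293 remain in both. CUT&RUN, which cuts and releases the DNA around an antibody-bound protein, here EZH2, was run on 200000 cells per reaction. Each genotype had 1 EZH2 library and 1 control library made with an anti-rabbit HRP secondary antibody, and the authors deposited 1 list of EZH2 peaks per genotype. The titles of the H3.1-K27M libraries read H31, so the assignment of these libraries rests on the genotype field alone.

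Each genotype is 1 EZH2 library, so differences could not be set against replicate spread and none was tested. The lists hold no read counts, so depth is unknown, and genotype and library cannot be told apart. Fold enrichment, the linear ratio of EZH2 signal over background, and the −log10 q of a peak are the authors' own values. A peak with a −log10 q of at least 5 is called strong here. Strong peaks made up 2.19% of the autosomal H3.1-K27M peaks and 6.97% of the autosomal H3.1-WT peaks.

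PAX proteins are transcription factors that bind DNA through a paired domain and set cell identity in the embryo. EZH2 is the catalytic subunit of PRC2, which methylates lysine 27 of histone H3, and the K27M mutation replaces that lysine with methionine. Genes of lineages that a cell has not taken are classical PRC2 targets, often at CpG-rich starts. PAX2 and PAX8 act in kidney development, while the other members act in the axial skeleton, neural crest, muscle, B cells, brain or eye. No RNA was measured in these libraries, so whether any member was silent was not tested.

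Of the 8 genes, 6 had a peak in the H3.1-K27M list, and all 8 had one in the H3.1-WT list. PAX3 and PAX6 were the genes without a call in H3.1-K27M. For comparison, 23.0% of 72014 autosomal windows of the same length held an H3.1-K27M peak and 29.1% held an H3.1-WT peak. Both lists had a peak at 6 PAX genes, against 14.9% of windows. Windows tile the whole of each autosome, gene-poor stretches included, so they are not a set of gene starts.

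Strong peaks were present at 3 PAX genes in H3.1-K27M (PAX1, PAX5 and PAX7), against 0.923% of autosomal windows. In H3.1-WT they were present at 6 (PAX1, PAX2, PAX5, PAX6, PAX7 and PAX9), against 2.91% of windows. Of the 6 genes with a strong H3.1-WT peak, 3 also had a strong H3.1-K27M peak. Over the autosomes 26.2% of windows with a strong H3.1-WT peak also had a strong H3.1-K27M peak.

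**Figure D1:**
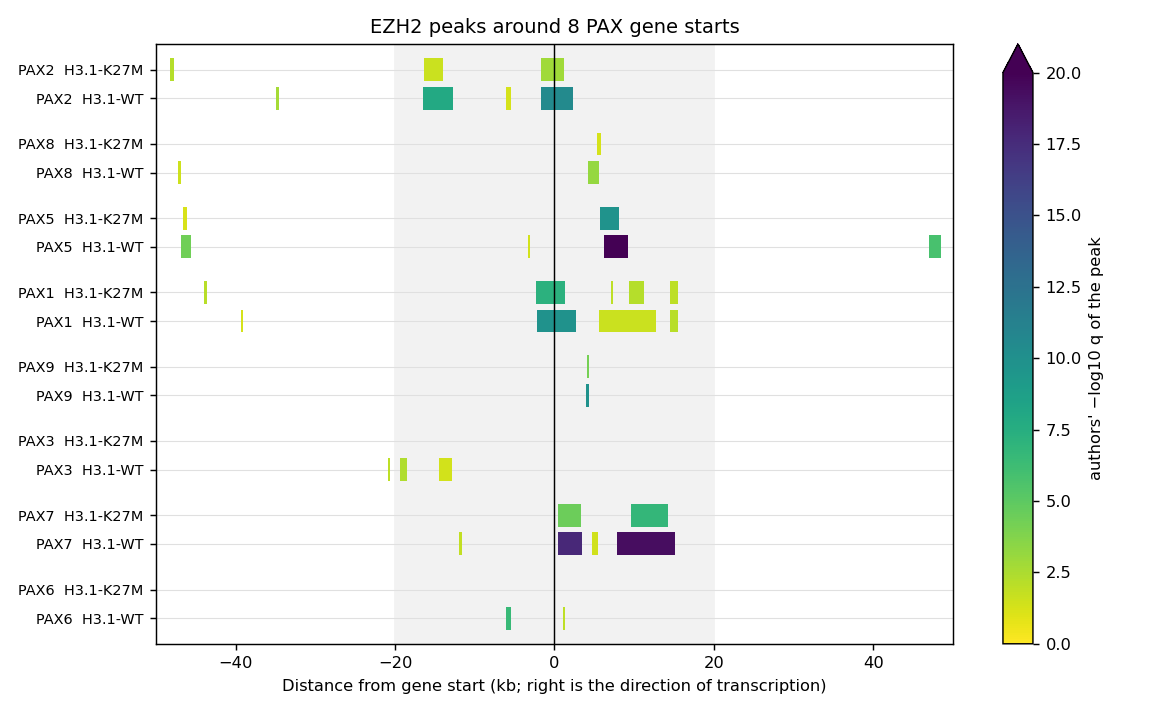
Peaks within 50 kb of the 8 gene starts, drawn to scale as boxes at their distance from the start in kb, with the direction of transcription to the right and H3.1-K27M above H3.1-WT for each gene. Colour gives the authors' −log10 q and grey shading marks 20 kb on either side; PAX3 and PAX6 have no box in the H3.1-K27M rows, and each H3.1-K27M box within the shading overlaps an H3.1-WT box in position.

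Within the windows the H3.1-K27M list was nearly contained in the H3.1-WT list. Peaks covered 22818 bases around the 8 starts in the H3.1-K27M list, against 41348 bases in the H3.1-WT list, a ratio of 0.552. Of these, 21944 bases were covered in both, that is 96.2% of the H3.1-K27M length and 53.1% of the H3.1-WT length. Each of the 8 genes had fewer covered bases in H3.1-K27M. H3.1-WT had the larger covered length in 59.9% of autosomal windows with a peak in either list and in 75.6% of those with a strong H3.1-WT peak. The same ratio of summed bases, H3.1-K27M over H3.1-WT, was 0.818 over the autosomal windows with an H3.1-WT peak and 0.813 over those with a strong one. Taken window by window, the median ratio was 0.141 over windows with an H3.1-WT peak (quartiles 0 and 0.927) and 0.623 over those with a strong one (0.292 and 0.989). The median over the 8 PAX genes was 0.581. The PAX genes thus lay below the autosomal windows in the ratio of sums and inside the quartiles of both sets in the median. Both sets of windows were chosen by an H3.1-WT peak, which favours lower ratios, and 48.6% of the first had no H3.1-K27M peak. The PAX genes were not chosen by such a peak, and PAX3 and PAX8 had no strong one.

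Each of the 11 H3.1-K27M peaks near PAX starts shared bases with an H3.1-WT peak (95% Wilson interval 74.1% to 100%), against 35.3% of autosomal H3.1-K27M peaks. An H3.1-K27M peak overlapped 10 of the 18 H3.1-WT peaks (55.6%, 33.7% to 75.4%), against 34.7% over the autosomes. Both intervals reflect counting alone and take the peaks to be independent of each other, although 4 of the 11 were at PAX1, 2 of them over 1 H3.1-WT peak. The 11 were also wider than the H3.1-K27M list, with a median of 2281 bases, against 810. Their median −log10 q was 2.89, against 1.58. The autosomal shares were not matched for width or strength. The 8 H3.1-WT peaks without a partner were mostly weak, with a median −log10 q of 1.67, against 9.89 for the 10 with one. The whole H3.1-WT list had a median of 1.82, and medians by partner were not computed for it. Autosomal windows with a strong H3.1-WT peak lacked an H3.1-K27M peak in 13.5% of cases, against 48.6% of windows with any H3.1-WT peak. The contrast is therefore not read as a trait of PAX starts. Of the 8 without a partner, 6 lay upstream of the start and 2 downstream, while among the 10 with a partner 1 lay upstream, 7 downstream and the others across the start. Sides are relative to 1 start per gene, although RefSeq lists PAX2 starts 10.2 kb apart and PAX6 starts spread over 17.3 kb. No share of sides over other genes was computed, so the split is not read as a difference between the groups. The unpartnered peaks belonged to PAX2, PAX3, PAX5, PAX6 and PAX7.

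Sequence from RefSeq (GRCh38.p14) was available for the starts of 7 of the 8 genes, PAX1 having no entry. The 250 bases before the start, 5′ to 3′, follow for 4 genes. PAX2 had a peak across its start, PAX7 had one beginning within 1 kb of it, PAX9 has a second annotated start, and PAX3 had no H3.1-K27M peak. Capitals mark CG, the dinucleotide that defines CpG islands and reads the same on both strands. The builds of the sequences and of the peaks differ, so no peak was placed on them base by base. PAX2 and PAX9 each have 2 starts in the table.
PAX2, upstream start, chr10:100735146-100735395, plus strand: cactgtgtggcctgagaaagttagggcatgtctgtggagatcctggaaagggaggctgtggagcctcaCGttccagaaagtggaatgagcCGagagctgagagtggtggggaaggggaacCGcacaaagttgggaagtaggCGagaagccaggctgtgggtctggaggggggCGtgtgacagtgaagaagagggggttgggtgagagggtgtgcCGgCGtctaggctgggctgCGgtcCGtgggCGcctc
PAX2, downstream start, chr10:100745332-100745581, plus strand: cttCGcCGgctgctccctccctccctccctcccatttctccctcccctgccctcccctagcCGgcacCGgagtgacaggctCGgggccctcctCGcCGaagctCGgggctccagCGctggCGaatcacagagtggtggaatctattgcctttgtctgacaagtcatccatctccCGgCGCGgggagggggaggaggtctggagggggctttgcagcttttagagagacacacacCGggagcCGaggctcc
PAX7, chr1:18630596-18630845, plus strand: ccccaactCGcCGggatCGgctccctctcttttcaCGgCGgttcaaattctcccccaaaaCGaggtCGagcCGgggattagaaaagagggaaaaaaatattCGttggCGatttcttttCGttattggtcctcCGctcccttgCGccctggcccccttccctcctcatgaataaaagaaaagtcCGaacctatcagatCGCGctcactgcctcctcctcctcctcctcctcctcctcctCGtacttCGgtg
PAX9, upstream start, chr14:36657318-36657567, plus strand: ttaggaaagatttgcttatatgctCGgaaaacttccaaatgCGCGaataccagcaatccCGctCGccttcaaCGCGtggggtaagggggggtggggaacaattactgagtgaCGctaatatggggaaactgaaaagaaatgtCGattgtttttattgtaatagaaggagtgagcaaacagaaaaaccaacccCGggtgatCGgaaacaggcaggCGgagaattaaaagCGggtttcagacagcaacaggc
PAX9, downstream start, chr14:36661610-36661859, plus strand: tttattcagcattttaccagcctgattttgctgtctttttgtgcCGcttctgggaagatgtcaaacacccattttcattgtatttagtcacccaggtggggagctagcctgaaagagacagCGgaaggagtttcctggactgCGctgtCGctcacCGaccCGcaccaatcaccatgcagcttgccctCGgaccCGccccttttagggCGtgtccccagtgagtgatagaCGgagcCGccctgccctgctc
PAX3, chr2:222298999-222299248, minus strand: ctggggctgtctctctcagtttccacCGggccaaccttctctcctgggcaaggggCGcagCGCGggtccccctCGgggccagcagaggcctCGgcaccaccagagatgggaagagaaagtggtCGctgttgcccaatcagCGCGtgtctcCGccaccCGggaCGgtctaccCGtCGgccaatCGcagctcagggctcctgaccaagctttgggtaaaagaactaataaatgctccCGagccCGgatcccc

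The PAX stretches shown lay within the quartiles of all windows in CG count. The PAX2 stretches hold 10 and 15 CG, PAX7 holds 18, PAX9 holds 13 and 11, and PAX3 holds 17. Over 35116 such windows in the table the median was 11, with quartiles of 3 and 23. As many CG as in the PAX7 window were found in 36.8% of all windows, and as many as in the PAX3 window in 39.0%. The 2 genes had like CG counts before the start. Relative to the number expected from their C and G content, the counts differed, at 1.05 for PAX7 and 0.668 for PAX3. PAX7 had a strong peak in both lists, in H3.1-K27M only from 9.63 to 14.3 kb downstream, and PAX3 had none in either. Whether CG content bears on the peaks was not tested. The 17 PAX windows ran from 3 to 28 CG, both extremes being among the 9 starts listed for PAX6. PAX5 had 27 CG, which like the 28 at PAX6 is above the upper quartile, and PAX8 had 11. PAX6 supplied 9 of the 17 windows and PAX1 none, and bases downstream of the start were not counted.

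PAX2, PAX5 and PAX8 form a subfamily by their protein structure. PAX2 and PAX8 are the kidney members, needed for the nephric duct and the nephron, and PAX5 is the B cell member. PAX2 (chromosome 10, start near 102.505 Mb, plus strand) had a peak across its start in both lists. It ran from −1.63 to 1.26 kb in H3.1-K27M (102503370 to 102506259, fold enrichment 4.20, −log10 q 2.89) and from −1.73 to 2.29 kb in H3.1-WT (102503275 to 102507288, 7.34, 10.5), with negative distances upstream. The H3.1-K27M peak lay entirely inside the H3.1-WT peak. A second shared peak lay upstream, from −16.3 to −14.0 kb in H3.1-K27M (fold enrichment 3.27, −log10 q 1.59) and from −16.5 to −12.8 kb in H3.1-WT (6.17, 7.92). Thus neither site was strong in H3.1-K27M, while both were strong in H3.1-WT. A weak peak of 642 bases from −6.06 to −5.42 kb was called in H3.1-WT alone, with a fold enrichment of 3.12. RefSeq places the 2 PAX2 starts 10.2 kb apart on GRCh38, and which of them the hg19 start stands for was not tested.

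PAX8 (chromosome 2, start near 114.036 Mb, minus strand), also a regulator of thyroid development, had no peak across its start in either list. Its only peak ran from 5.30 to 5.84 kb downstream of the start in H3.1-K27M (537 bases, fold enrichment 3.12, −log10 q 1.29) and from 4.19 to 5.60 kb in H3.1-WT (1408 bases, 4.32, 3.18). The peaks shared 297 bases. Neither was strong, and the antisense transcript PAX8-AS1 is annotated within 20 kb of the start, so the peak was not assigned to either transcript. After PAX3, PAX8 had the lowest top −log10 q of the 8 genes in H3.1-WT.

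PAX5 (chromosome 9, start near 37.034 Mb, minus strand) fixes B cell identity and also acts at the midbrain and hindbrain border. It carried the peak with the highest fold enrichment and −log10 q of the 8 genes in both lists. That peak lay downstream of the start, from 5.77 to 8.05 kb in H3.1-K27M (37025949 to 37028229, fold enrichment 6.61, −log10 q 9.71) and from 6.17 to 9.19 kb in H3.1-WT (37024811 to 37027827, 9.97, 22.5). It ranked 165th of the H3.1-K27M list by −log10 q and 171st of the H3.1-WT list. The H3.1-K27M peak began nearer the start, so that 1879 of its 2281 bases were shared. A peak of 288 bases at −3.32 kb was called in H3.1-WT alone (fold enrichment 3.24). PAX5 had 2281 covered bases in H3.1-K27M, against 3305 in H3.1-WT, and 5.90% of autosomal windows were covered as much by H3.1-K27M peaks, against 3.09% by H3.1-WT peaks.

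PAX2 carried more peaks than PAX8 in both lists. Within 20 kb of the start PAX2 had 5252 covered bases in H3.1-K27M, against 8335 in H3.1-WT, while PAX8 had 537 in H3.1-K27M, against 1408 in H3.1-WT. Covered length per gene averaged 2.89 kb for PAX2 and PAX8 and 2.84 kb for the other 6 genes in H3.1-K27M. In H3.1-WT the averages were 4.87 and 5.27 kb. The spread inside each group was wider than the difference between them, and loci of the same libraries are not replicates, so no test was made. Neither kidney gene had a strong peak in H3.1-K27M, against 3 of the 6 others. In H3.1-WT 1 of the 2 kidney genes had one, against 5 of the 6 others.

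**Figure D2:**
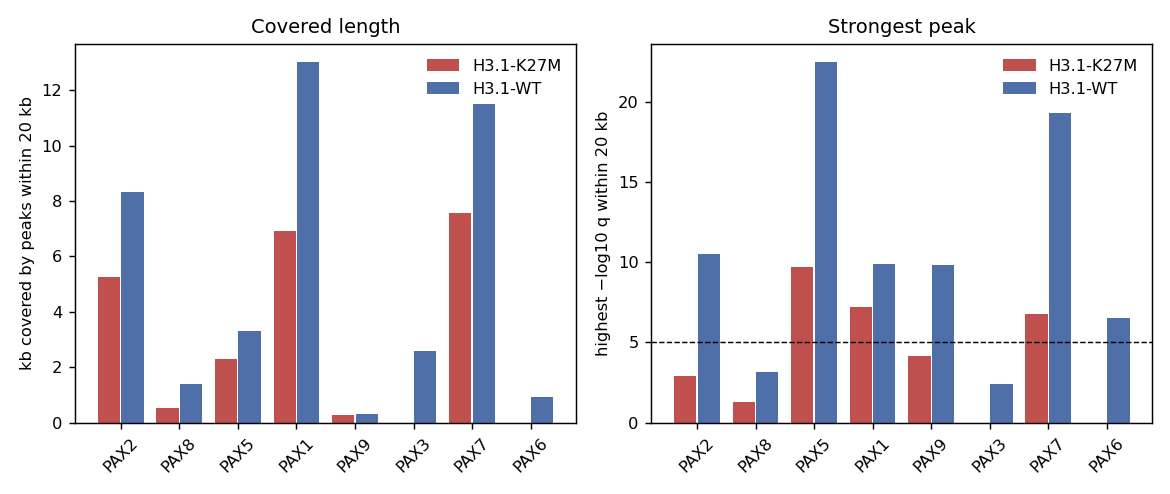
Length covered by peaks within 20 kb of each start in kb (left) and the highest −log10 q of a peak there (right), with H3.1-K27M left of H3.1-WT for each gene and the dashed line at 5; an absent bar means that no peak was called. Each gene has the lower bar in H3.1-K27M in both panels, from 258 against 302 bases at PAX9 to 6925 against 13019 bases at PAX1.

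PAX1 and PAX9 form a subfamily that acts in the sclerotome and the pharyngeal pouches, with PAX9 also needed for teeth. PAX1 (chromosome 20, start near 21.686 Mb, plus strand) had a strong peak across its start in both lists. It ran from −2.38 to 1.32 kb in H3.1-K27M (21683624 to 21687315, fold enrichment 5.98, −log10 q 7.20) and from −2.19 to 2.69 kb in H3.1-WT (21683806 to 21688686, 5.76, 9.92). This was the member where the H3.1-K27M fold enrichment was not below that of H3.1-WT. Downstream, H3.1-K27M had separate peaks from 7.08 to 7.40 kb and from 9.29 to 11.2 kb (fold enrichment 3.73 and 3.84), where H3.1-WT had 1 weak peak of 7080 bases from 5.61 to 12.7 kb (3.32, −log10 q 1.62). A last pair of peaks lay near 14.5 to 15.4 kb in H3.1-K27M and 14.5 to 15.6 kb in H3.1-WT, with a fold enrichment of 3.70 in H3.1-K27M, against 3.51 in H3.1-WT. Covered length came to 6925 bases in H3.1-K27M, against 13019 in H3.1-WT, the most of the 8 genes in that list. As much coverage as the PAX1 window was seen in 1.36% of autosomal windows for H3.1-K27M, against 0.0819% for H3.1-WT.

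PAX9 (chromosome 14, start near 37.127 Mb, plus strand) had 1 narrow peak in each list at nearly the same place. It ran from 4.06 to 4.32 kb downstream of the start in H3.1-K27M (258 bases, fold enrichment 4.91, −log10 q 4.16) and from 4.02 to 4.32 kb in H3.1-WT (302 bases, 7.34, 9.85). With 256 bases shared, the calls nearly coincided at both edges. Among H3.1-WT peaks it was in the strongest 2.43% by −log10 q and at the same time among the narrow ones, since 91.6% of the list ranked as wide or wider. RefSeq lists 2 PAX9 starts 4.29 kb apart on GRCh38, close to the distance of this peak from the hg19 start. Whether the peak lies on the downstream start was not tested, for want of an hg19 annotation here.

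PAX3 and PAX7 form the subfamily of neural crest and muscle progenitors. PAX7 (chromosome 1, start near 18.957 Mb, plus strand), the marker of muscle satellite cells, had large peaks in both lists. The first lay just downstream of the start, from 0.463 to 3.39 kb in H3.1-K27M (18957463 to 18960390, fold enrichment 5.01, −log10 q 4.48) and from 0.485 to 3.42 kb in H3.1-WT (18957485 to 18960415, 8.98, 17.8). Its edges in the lists nearly coincided, with widths of 2928 bases in H3.1-K27M, against 2931 bases in H3.1-WT. The second ran from 9.63 to 14.3 kb in H3.1-K27M (4637 bases, fold enrichment 5.99, −log10 q 6.78) and from 7.79 to 15.2 kb in H3.1-WT (7393 bases, 9.73, 19.3). H3.1-WT alone had weak peaks near −11.5 kb and from 4.71 to 5.45 kb, with fold enrichments of 3.09 and 3.23. Covered length was 7565 bases in H3.1-K27M, the most of the 8 genes in that list, against 11493 in H3.1-WT. As much coverage was seen in 1.16% of autosomal windows for H3.1-K27M, against 0.128% for H3.1-WT.

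PAX3 (chromosome 2, start near 223.164 Mb, minus strand), which acts in dorsal neural tube and neural crest, differed from PAX7. It had no H3.1-K27M peak, the nearest lying 301.7 kb from the start. In H3.1-WT it had weak peaks upstream from −14.5 to −12.9 kb (1678 bases, fold enrichment 3.03, −log10 q 1.40) and from −19.3 to −18.5 kb (895 bases, 3.82, 2.41). A further H3.1-WT peak lay just outside the rule, 20.6 kb from the start, with a fold enrichment of 3.62. In H3.1-K27M the peak nearest to the limit of the rule from outside was at PAX1, 43.6 kb from the start (fold enrichment 3.84). No PAX3 call thus lay within 10 kb of the start. CCDC140, CT75 and RNF228 are annotated within 20 kb of the PAX3 start, and the peaks were not assigned among these genes.

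PAX6 (chromosome 11, start near 31.833 Mb, minus strand), the master regulator of eye development, likewise had no H3.1-K27M peak, the nearest lying 59.8 kb away. In H3.1-WT it had a strong peak of 642 bases upstream, from −6.08 to −5.44 kb (31838437 to 31839078, fold enrichment 5.81, −log10 q 6.55). A weak peak of 271 bases lay from 1.01 to 1.28 kb, with a fold enrichment of 3.61. The upstream peak was the only strong H3.1-WT peak of the 8 near PAX starts without an H3.1-K27M partner. The PAX6 window held no H3.1-K27M peak at all, as did 13.5% of autosomal windows with a strong H3.1-WT peak. That share counts windows and not single peaks without a partner. RefSeq lists 9 PAX6 starts spread over 17.3 kb, together with PAX6-AS1 and PAUPAR, so distances from 1 start describe this gene only in part.

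Fold enrichments were then compared peak by peak where the lists overlapped. The overlap gave 11 pairs at 6 genes. Fold enrichment was lower in H3.1-K27M in 7 pairs, against 60.1% of 10397 autosomal pairs. All 4 pairs with a higher fold enrichment in H3.1-K27M were those of PAX1, with ratios of H3.1-K27M over H3.1-WT from 1.04 to 1.16. At the other 5 genes the ratios ran from 0.530 at the upstream PAX2 peak to 0.721 at PAX8. Among the 7 pairs with a strong H3.1-WT peak 6 were lower in H3.1-K27M, against 95.4% of 1838 such autosomal pairs. Their median ratio was 0.615, and that of the autosomal pairs was 0.659, with quartiles of 0.566 and 0.766. The ratios at PAX2, PAX5, PAX7 and PAX9 thus lay within the 5th and 95th percentiles of strong peaks, 0.442 and 0.984. The PAX1 start peak, at 1.04, had the highest ratio of the 7 and lay above that range. A ratio as high was found in 3.43% of autosomal pairs with a strong H3.1-WT peak. Among the 1062 pairs with an H3.1-WT −log10 q from 5 to 10 the share was 4.90%. The PAX1 pair was singled out as the highest of the 7, so these single-pair shares do not measure how unusual it is. All these pairs were chosen by a strong H3.1-WT value, so a lower value in H3.1-K27M is in part built in. For autosomal pairs with an H3.1-WT −log10 q under 5 the median ratio was 0.991.

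**Figure D3:**
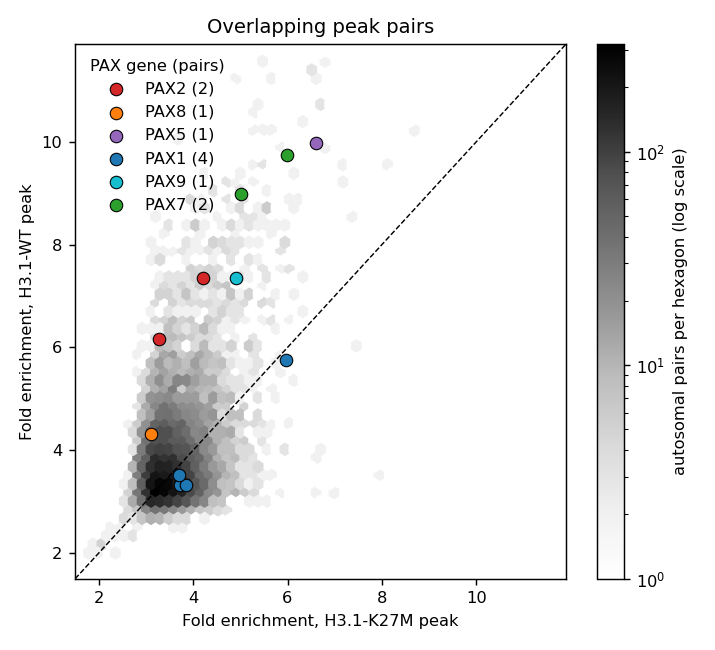
Authors' fold enrichment of overlapping peaks, H3.1-K27M on the horizontal and H3.1-WT on the vertical axis, with coloured points for the 11 PAX pairs, grey hexagons counting 10397 autosomal pairs on a log scale and a dashed line of equal values. The 4 PAX1 points lie below the line and the other 7 above it; autosomal pairs with higher fold enrichment fall outside the axes.

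In H3.1-K27M the window was more densely covered than the rest of the 1 Mb around it at 5 genes, and not at PAX3, PAX6 and PAX8. In H3.1-WT it was more densely covered at each of the 8. A window without a peak, as at PAX3 and PAX6 in H3.1-K27M, cannot be the denser one. A single narrow peak can be enough, as at PAX9 in H3.1-WT with 302 covered bases. The share of autosomal windows denser than their surroundings was not computed, so these counts are not read as particular to PAX starts. As a ratio of window to surroundings PAX7 stood highest in both lists among the genes with a peak in each, with 189.1 kb per Mb inside the window against 1.69 kb per Mb around it in H3.1-K27M, and 287.3 against 1.96 in H3.1-WT. The megabase around PAX7 was thus sparse outside the window in both lists. By the same ratio PAX8 stood lowest of these 6 genes, with 13.4 inside and 13.5 around in H3.1-K27M and 35.2 and 25.9 in H3.1-WT. Around PAX1 the surroundings were denser in H3.1-K27M, 25.6 kb per Mb, against 12.8 in H3.1-WT, although the window itself was less covered there. The PAX1 surroundings thus differed from those of the 7 other genes, which were less covered in H3.1-K27M, such as PAX2 at 6.24 kb per Mb, against 18.2 in H3.1-WT. Over all autosomes coverage was 12 kb per Mb in H3.1-K27M, against 11.5 in H3.1-WT.

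**Figure D4:**
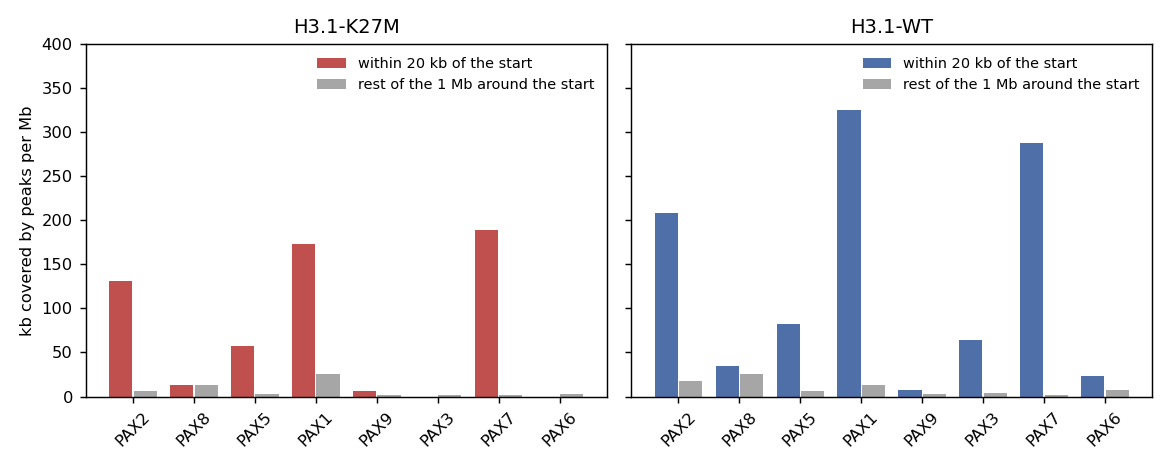
Length covered by peaks in kb per Mb within 20 kb of each start (coloured) and in the rest of the 1 Mb centred on it (grey), for H3.1-K27M (left panel) and H3.1-WT (right panel). PAX1, PAX2 and PAX7 stand highest in both panels, and at PAX8 the coloured and grey bars are of like height in H3.1-K27M.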

How the data were processed

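EZH2 peaks came from CUT&RUN of HEK293 cells. Alignment and calling details are not given in the sources used here beyond a list in the submitters' processing notes: hg19, MACS2, Bowtie2 2.3.5.1, cutadapt, deepTools and Picard. Per the peak names in the files, each list compares 1 EZH2 library with 1 HRP library, so replicates were not pooled. For each peak the authors deposited a fold enrichment, which is a linear ratio, a −log10 p, a −log10 q and a score. The lowest deposited −log10 q was 1.00 for H3.1-K27M, against 1.01 for H3.1-WT. The p-values and the score were not used. All deposited peaks were used, with no filter for repeats. Peak number and strength depend on depth, which is unknown.

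Windows of 20 kb on either side of each start, covered bases and overlaps of at least 1 base were computed with Python 3.11.15, pandas 2.3.3 and scipy 1.17.1. Autosomes were tiled with 72014 windows of 40001 bases, with hg19 lengths from circlize 0.4.16. No peak was past an hg19 chromosome end (0 of all peaks). Window counts and overlaps were tested on 20000 simulated sites and 300 windows, with 0 errors and 0 differences from bedtools 2.31.1. Positions are 1-based. Strands and promoter sequence came from RefSeq on GRCh38, with the strand of PAX1 from general knowledge. All 8 members are named. The members and lists were chosen with earlier results of these data known. A list of other nephric regulators was not analysed here, since no hg19 annotation was used. Alternatives covered window size, minimum −log10 q, list length, peak assignment, joining of peaks and the overlap required.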

Additional observations from a re-analysis of the deposited data

How the results depend on the processing

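H3.1-K27M stayed below H3.1-WT in each alternative run for the ratios of covered bases and of peak number. The ratio of covered bases, 0.552, ran from 0.395 at a −log10 q of at least 5 to 0.644 with equal list lengths. Leaving out 1 gene in turn, an alternative chosen after seeing the data, gave 0.511 to 0.588 for covered bases and 0.467 to 0.688 for the ratio of peak number, 0.611. The following values moved by over 1.5 times, or beyond their interval for shares. At a −log10 q of at least 5, H3.1-K27M had 3 genes, 3 peaks and 10610 covered bases, H3.1-WT had 8 peaks and 26859 bases, and the ratio of peak number was 0.375. At a minimum of 2, H3.1-WT had 11 peaks. Within 10 kb, covered bases were 13988 for H3.1-K27M, against 25738 for H3.1-WT. These follow from fewer peaks or a smaller window. With a reciprocal overlap of 50%, 72.7% of the H3.1-K27M peaks near PAX starts were overlapped, below the interval of the 100% reported. This changes the definition of overlap, and the autosomal share under it was not computed. Outside centromeric, variable and stalk bands the share of autosomal windows with a peak was 24.5% for H3.1-K27M, against 31% for H3.1-WT. The other 51 planned values did not move past these limits. The number of genes with a strong peak, 3 for H3.1-K27M, against 6 for H3.1-WT, was the same in the 4 alternatives run for it. Equal list lengths could not change it, since each list cut to its top 15538 peaks by −log10 q keeps all its strong ones. The minimum of 5 that defines a strong peak was not varied for this count. No paired analysis was possible because only 1 EZH2 library represents either genotype. Since depth is unknown, it limits each comparison of peak number and strength between the lists.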

Other observations

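At 100 kb scale the PAX calls gathered near the starts in both lists. In stretches of 1 kb pooled over the 8 genes, peaks were present in 17.5% of those within 5 kb of the start, 8.75% of those from 5 to 20 kb and 1.72% of those from 20 to 100 kb in H3.1-K27M. The shares in H3.1-WT were 25%, 16.7% and 2.27%. These shares pool 8 loci of 1 library per genotype and are a description. Neighbouring stretches are not independent, since 1 wide peak, such as that of 7393 bases at PAX7 in H3.1-WT, fills several of them. The same shares around other gene starts were not computed, so the gradient is not read as particular to PAX genes.

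Some peaks near PAX starts were wide and weak or narrow and strong, though most of the strong ones were wide. The PAX1 peak of 7080 bases was among the widest 0.698% of the H3.1-WT list, yet 61.1% of that list had a −log10 q as high or higher. The PAX9 peak, at 302 bases, had a −log10 q of 9.85, close to the 9.92 of the PAX1 start peak of 4881 bases.

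Both lists also had a call upstream of PAX5 outside the 20 kb window, from −46.5 to −46.0 kb in H3.1-K27M (fold enrichment 2.97) and from −46.8 to −45.6 kb in H3.1-WT (4.74). A strong H3.1-WT peak downstream of the start, from 47.0 to 48.5 kb with a fold enrichment of 5.07, had no H3.1-K27M partner.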
